A study of Mus musculus with 24 samples.

Results

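Genes that mark neurons were followed through the peak lists of jaw and limb cartilage: 8 of the 21627 protein-coding genes placed on the autosomes and X. They were Pou4f1, Isl1 and Neurod1 (transcription factors of sensory and motor neurons), Elavl3 and Elavl4 (neuronal RNA-binding proteins), Tubb3 (a tubulin of axons), Stmn2 (a regulator of microtubules in growing axons) and Snap25 (a protein of synaptic vesicle release). The set was chosen from the combined H3K27ac lists, in which several of these genes were listed in Meckel's cartilage and not in forelimb cartilage, so that contrast is given here as a description without a test. A peak belonged to a gene when its midpoint lay inside the gene's span, and otherwise when that span was the nearest one within 1 Mb, on the mouse build mm10.

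All libraries were from wild-type C57BL/6 mouse embryos. Meckel's cartilage (MC), the cartilage rod of the lower jaw, and forelimb cartilage (FL) were taken at E14.5, and the mandibular process, from which the lower jaw forms, at E12.5. ATAC-seq, which reads open chromatin, covered 3 MC, 3 FL and 2 E12.5 libraries, and CUT&Tag for H3K27ac, a histone mark of active promoters and enhancers, covered 3 MC and 3 FL libraries. The titles and protocols of the E12.5 libraries were followed where their descriptions gave a different stage and method. The labels do not say whether libraries of a group came from separate embryos or pools, so the p-values below measure only the spread between these libraries.

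Both assays read nuclei. The cell bodies of the sensory and motor neurons that serve jaw and limb lie in ganglia and in the neural tube, so nerve fibres inside a cartilage dissection carry the nuclei of Schwann cells along with them and few of the neurons' own. Schwann cells wrap axons and derive from neural crest, as does Meckel's cartilage itself, whereas limb cartilage derives from mesoderm. In such bulk samples fewer cells of a type and less signal per cell cannot be told apart.

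The promoters of 5 of the 8 genes are printed because they show both situations met below. Elavl3, Elavl4 and Tubb3 had a start under an H3K27ac peak in the MC list and in no FL peak, and Isl1 and Pou4f1 had a start that was open in every ATAC library with no H3K27ac peak in either list. Sequences are from RefSeq on GRCm38.p6, the assembly of mm10, and run 5′ to 3′ along the gene from 250 bases before the start to 50 after it; 6 of the 8 genes had an entry, and Stmn2 and Snap25 had none. Capitals mark CAGCTG, an E-box, the short element that basic helix-loop-helix factors such as Neurod1 recognise.
Elavl3: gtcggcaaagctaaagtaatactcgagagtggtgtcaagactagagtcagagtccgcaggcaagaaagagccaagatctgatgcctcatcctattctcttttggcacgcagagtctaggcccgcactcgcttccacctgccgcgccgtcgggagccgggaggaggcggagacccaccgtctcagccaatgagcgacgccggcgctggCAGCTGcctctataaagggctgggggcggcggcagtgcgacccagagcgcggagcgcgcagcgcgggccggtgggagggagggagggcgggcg
Elavl4: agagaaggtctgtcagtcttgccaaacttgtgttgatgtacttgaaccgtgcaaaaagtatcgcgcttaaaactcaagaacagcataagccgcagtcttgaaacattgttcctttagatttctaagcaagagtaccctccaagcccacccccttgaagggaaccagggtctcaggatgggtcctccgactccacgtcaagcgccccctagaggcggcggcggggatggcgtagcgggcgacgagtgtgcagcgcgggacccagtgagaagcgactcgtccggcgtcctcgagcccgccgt
Tubb3: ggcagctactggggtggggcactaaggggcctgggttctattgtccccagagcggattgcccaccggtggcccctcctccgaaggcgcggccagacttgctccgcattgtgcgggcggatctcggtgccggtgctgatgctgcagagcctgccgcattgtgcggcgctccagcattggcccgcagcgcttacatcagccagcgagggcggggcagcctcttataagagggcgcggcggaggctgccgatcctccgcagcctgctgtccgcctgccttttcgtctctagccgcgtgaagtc
Isl1: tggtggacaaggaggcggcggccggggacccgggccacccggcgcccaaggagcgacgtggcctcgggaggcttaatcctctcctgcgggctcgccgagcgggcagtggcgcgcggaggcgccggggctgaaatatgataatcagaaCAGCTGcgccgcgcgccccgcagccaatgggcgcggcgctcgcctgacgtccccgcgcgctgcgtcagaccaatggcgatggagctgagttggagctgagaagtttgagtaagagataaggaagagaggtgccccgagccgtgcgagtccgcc
Pou4f1: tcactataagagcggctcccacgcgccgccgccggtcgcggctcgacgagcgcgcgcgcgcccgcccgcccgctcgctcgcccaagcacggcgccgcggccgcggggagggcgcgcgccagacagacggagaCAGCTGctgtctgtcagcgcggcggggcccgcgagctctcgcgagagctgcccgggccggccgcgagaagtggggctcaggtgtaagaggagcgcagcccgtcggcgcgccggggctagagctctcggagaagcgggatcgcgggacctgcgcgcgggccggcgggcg

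The Elavl3 window is chr9:22051974-22052273 on the minus strand, and the Elavl4 window is chr4:110351862-110352161, also on the minus strand. Tubb3 lies on the plus strand, with its window at chr8:123411303-123411602. The Isl1 window is chr13:116309639-116309938 and that of Pou4f1 is chr14:104467950-104468249, both on the minus strand. These promoters are rich in the dinucleotide CG. Pou4f1 held 57 CG in 300 bases, more than 99.8% of 17273 genes, and Isl1 held 37, Elavl3 29, Neurod1 26, Tubb3 26 and Elavl4 23, against a median of 14 over all genes. CAGCTG, which reads the same on both strands, occurred in 3 of the 6 promoters and in 15.2% of all 17273. CAGATG, a second E-box that does not overlap it, was searched on both strands and occurred in 0 of the 6 and in 14.7% of all. Both motifs were picked after the sequences had been read, and a match describes letters, not binding.

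Facts of the whole lists frame the values. The 8 single ATAC lists held 43205 to 74706 peaks, and E12.5 replicate 1 stood apart, with 85.6 Mb under peaks against 40.7 to 53.0 Mb in the other lists. No read counts accompany the lists, so depth is unknown. Of 14 cartilage genes, 13 had H3K27ac in both combined lists and the last one in MC alone. Of all 21627 genes 11338 were listed in both, as were 6 of 8 epithelial and 6 of 8 endothelial genes. Listing in both therefore does not by itself mark cartilage. Values per gene below are the kb under its peaks, scaled so that every list had the same total.

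In the combined H3K27ac lists, which the authors made by pooling and which carry no replicate error, 4 of the 8 neuronal genes were listed in MC and at 0 in FL, where 13.1% of the 14357 genes with a peak in either list were. They were Elavl3, Elavl4, Tubb3 and Stmn2. Snap25 was listed in both tissues, Pou4f1, Isl1 and Neurod1 were listed in neither, and none of the 8 was listed in FL alone, where 7.91% of genes were. In all, 5 of the 8 genes were listed in MC, where 61.1% of all genes were, and 1 in FL, where 57.7% were. Listing in neither tissue was common: 33.6% of all genes were listed in neither. By a log2 ratio of at least 1 between the kb plus 0.5, 4 of the 8 were higher in MC, where 19.1% of genes were, and 0 were lower, where 15.9% were. These counts follow from how the genes were chosen and nothing is read from the shares.

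The peaks were few, with lengths on both sides of the median of 5.51 kb of the MC list. Elavl3 had 1 MC peak at chr9:22046271-22053038, 6.77 kb long, which covered the promoter printed above. Elavl4 had 1 of 3.51 kb at chr4:110349029-110352541, which also covered its promoter. Stmn2 had a peak of 4.83 kb at chr3:8507641-8512471, over the end of lower coordinate of its span, and one of 4.08 kb at chr3:8592846-8596924, centred 33.3 kb beyond the span. The FL list had no peak at any of these places.

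Tubb3 had 1 assigned MC peak, chr8:123419980-123423408 (3.43 kb), at the 3′ end of the gene. Its start was covered too, by a much larger MC peak of 15.0 kb at chr8:123397315-123412282 that the midpoint rule gave to the neighbouring gene Tcf25. The corresponding FL peak, chr8:123397660-123408474, ended 3.08 kb short of the Tubb3 start. The difference at the Tubb3 start between the tissues was thus one of how far a shared peak reached, with a total signal of 86115 in MC and 70571 in FL.

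Elavl3 also had FL signal close by. An FL peak of 35.8 kb assigned to Ecsit, its neighbour, came within 3.39 kb of the Elavl3 start. At Stmn2 the nearest FL peak was 113.7 kb from the start end, and at Elavl4 it was 556.9 kb away. Snap25 was the gene shared by both lists, through a region outside the gene: the MC peak chr2:136677795-136683751 and the FL peak chr2:136668626-136684282 overlapped, centred 32.7 and 37.0 kb from the span. A further MC peak without FL partner, chr2:136646446-136654387, was centred 63.0 kb from Snap25.

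For the transcription factors the nearest marked chromatin lay far off in most cases. From the Pou4f1 start it was 688.3 kb to the nearest MC peak and 23.8 kb to the nearest FL peak, assigned to Obi1. From the Isl1 start it was 566.5 kb in the MC list and 546.3 kb in the FL list, and from the Neurod1 start 178.1 kb in the MC list and 143.9 kb in the FL list. None of these 3 transcription factors had an H3K27ac peak at its start in either tissue.

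The 2 combined lists differ in how weak a peak they admit. Each peak carries a total signal, and the lowest total signal listed was 16925 in MC and 25799 in FL. Of the 47549 MC peaks, 17864 (37.6%) were below the lowest FL value. Of those weak MC peaks 53.7% overlapped an FL peak, against 90.3% of the 29685 MC peaks at or above it.

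Most of the neuronal MC peaks lay in that weak range. Total signal was 17378 at Tubb3, 21532 and 22845 at Stmn2, 21926 at Elavl4, 26902 at Elavl3 and 36424 at the Snap25 peak without FL partner. Of these 6 MC peaks without an FL peak, 4 were under the lowest FL signal, and Elavl3 stood only 1.04 times above it. The Tubb3 peak was at the 3.10 percentile of the MC list, and the Elavl3 peak at the 40.2 percentile. A peak of the strength seen at Tubb3, Stmn2 or Elavl4 would not have been listed in FL if signals of the 2 tissues are on one scale.

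How the authors scaled the signal is not stated, so whether both lists are on one scale is unknown. Peaks shared by both lists read it only in part, because an FL partner of a weak MC peak is listed only at or above the FL minimum, which raises the ratio of such pairs. Over the 6573 one-to-one pairs with the stronger MC peaks (51598 or more) the FL signal was 1.03 times the MC signal at the median, which puts the FL minimum at 25156 on the MC scale, and the Tubb3, Elavl4 and both Stmn2 peaks were under it. Over all 20979 pairs, which include the weak ones, the ratio was 1.24, which puts the FL minimum at 20737 on the MC scale. The Elavl4 peak and both Stmn2 peaks stood above that value, and the Tubb3 peak under it. Choosing pairs by a high MC signal can in turn lower the ratio, so neither value settles the scale. With the MC peaks under 25799 left out, 1 of the 8 genes (Elavl3) stayed at least 2-fold higher in MC. With the same number of peaks taken from each list, the strongest ones, 3 did (Elavl3, Elavl4 and Stmn2).

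**Figure D1:**
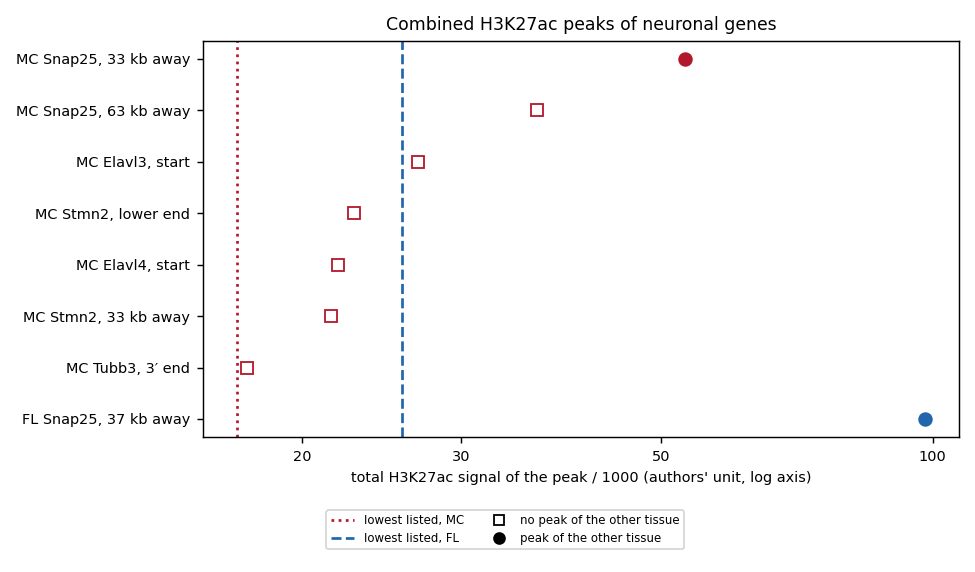
Total H3K27ac signal (in units of 1000, log axis) of each combined peak assigned to a neuronal gene, with MC peaks above the single FL peak; vertical lines mark the lowest signal listed in each tissue, and open squares have no peak in the other tissue. Of the 6 open squares 4 stand left of the FL line at 25799, and Elavl3 stands just right of it.

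MC peaks of similar signal without an FL partner were common over the whole list. Of 24879 MC peaks with a signal between 17378 and 36424, 37.5% had no FL peak. That range is set by the 6 neuronal peaks without an FL peak, and part of it lies above the FL minimum of 25799. Of the 1884 genes listed in MC alone, 757 (40.2%) had all their peaks under the lowest FL signal, as Elavl4, Tubb3 and Stmn2 did.

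Other neuronal genes were listed in either tissue alone. Of a wider list of 24 neuronal genes without these 8, 9 were listed in both tissues, 4 in MC alone, 3 in FL alone and 8 in neither, with a median log2 ratio of MC over FL of -0.10, against 0.04 over all genes with a peak. Of all 21627 genes, 11338 were listed in both, 1884 in MC alone, 1135 in FL alone and 7270 in neither. Of 11 Schwann cell genes, 4 were listed in both, 2 in MC alone, 1 in FL alone and 4 in neither, with a median of -0.19. The median of the 5 chosen genes with a peak was 3.08 on the same log2 scale, set by how they were chosen.

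**Figure D2:**
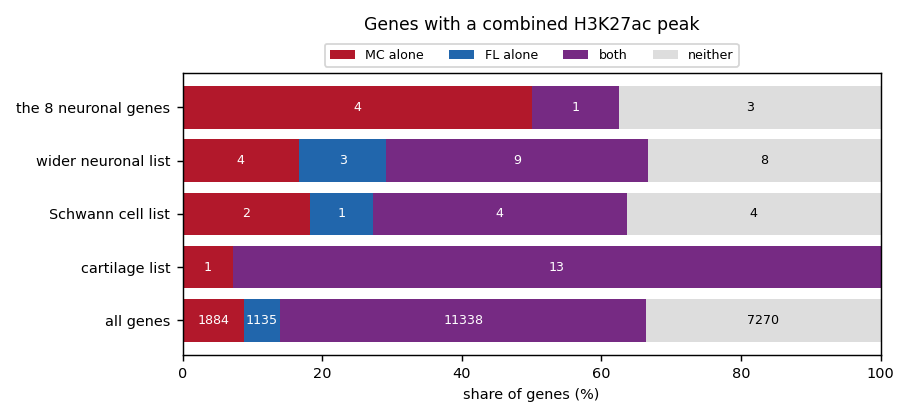
Share of genes (%, horizontal axis; numbers of genes in the bars) with a combined H3K27ac peak in MC alone, FL alone, both or neither, for the 8 neuronal genes, 3 other lists and all genes. MC alone holds 4 of the 8 chosen genes, against 4 of the 24 of the wider neuronal list, which has 3 in FL alone.

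The single H3K27ac libraries, called one by one, held much smaller peaks, and 3.75 to 4.22% of them lay within 1 kb of a gene end, against 29.3% in the combined MC list and 31.4% in the combined FL list. In the single libraries, MC and FL overlapped at each of the chosen genes, and 0 of 8645 genes tested passed the test given below. With few peaks at gene ends and no gene called, these lists cannot decide whether the neuronal genes differ. Stmn2 had 20.1, 11.9 and 15.0 kb in the MC libraries, against 16.2, 18.8 and 18.0 kb in the FL libraries. Elavl4 had 8.15, 6.77 and 4.41 kb in MC libraries, against 4.73, 1.28 and 8.32 kb in FL. The ranges overlapped for both genes.

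Elavl3 had 0.556, 0.397 and 0.493 kb in the MC libraries, against 1.05, 0.516 and 0.592 kb in the FL libraries. Tubb3 had 0.854, 0 and 0.410 kb in MC libraries, against 1.27, 0 and 0.946 kb in FL. Both were under the mean of 1 kb required for the test. Snap25 had 6.32, 5.36 and 6.04 kb in MC libraries, against 3.74, 5.70 and 3.74 kb in FL, again with overlap.

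Of the 6 genes tested, 0 passed, against 0% of 8645 genes in either direction (limma, Benjamini-Hochberg adjusted p under 0.05; 571 genes had an unadjusted p under 0.05). The largest difference among them was at Elavl4, with a log2 difference of 0.64 (SE 0.61, limma adjusted p = 0.861). Stmn2 differed by -0.20 (SE 0.36, limma adjusted p = 0.923). The MC libraries and FL libraries did not lie apart for any of the 6, where 6.34% of genes lay apart with MC higher and 5.92% with MC lower.

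The single libraries also covered genes that the combined lists left empty. Isl1 had 27.7, 32.1 and 29.5 kb over MC libraries and 31.5, 24.8 and 35.3 kb in FL, although it had no combined peak. Its assigned stretch of genome is long, 880 kb, and cover was 1.65 times the even spread in MC and 1.69 times in FL. Few of the combined peaks were seen in single libraries. The Elavl3 peak overlapped a peak of 1 MC library and 0 FL libraries, the Elavl4 peak of 0 MC libraries and 1 FL library, and the Tubb3 peak of none of either.

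Open chromatin at the starts did not follow the mark. A start with an ATAC peak within 1 kb in all 8 libraries was found for Pou4f1, Isl1, Elavl4 and Snap25, 4 of the 8 genes, where 54.1% of 17273 genes with a promoter entry had one (for Snap25 and Stmn2 the end of lower coordinate was used). Tubb3 had one in 7 libraries, with FL replicate 1 the exception. Elavl3 had one in E12.5 replicate 1 and FL replicate 1 only, Stmn2 in FL replicate 2 only, and Neurod1 in none.

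H3K27ac in the combined lists lay within 1 kb of the start for Elavl3, Elavl4, Tubb3 and Stmn2 in MC, 4 of 8, and for 0 of 8 in FL, where 61.5% of genes had it in MC and 56.4% in FL. Within 1 kb of the start, openness and the mark thus came apart in both directions. Pou4f1, Isl1 and Snap25 were open at the start in all libraries with no H3K27ac there in either tissue, a combination shown by 7.13% of the 9351 genes open in all 8. Elavl3 and Stmn2 had the mark at the start in MC with no ATAC peak within 1 kb in any MC library. Elsewhere under the same H3K27ac peaks, 1 MC library had an ATAC peak at Elavl3 and 2 had one at Stmn2.

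In ATAC cover the genes leaned the other way from H3K27ac at Stmn2 and Elavl4. Stmn2 had 2.25, 1.31 and 1.40 kb in the MC libraries, against 3.62, 4.31 and 3.70 kb in the FL libraries. Elavl4 had 2.58, 2.49 and 2.74 kb in MC libraries, against 3.39, 3.94 and 3.82 kb in FL. For both genes every MC library was below every FL library.

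Tubb3 leaned towards MC, with 1.71, 1.71 and 1.96 kb in the MC libraries, against 0.964, 1.09 and 0.943 kb in the FL libraries. Every MC library was above every FL library. Elavl3 was near the limit of what was listed, with 0.758, 0 and 1.22 kb in MC libraries, against 0.656, 0 and 0 kb in FL, and the groups overlapped.

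Isl1 had 8.27, 5.43 and 7.06 kb in MC libraries, against 9.66, 7.49 and 8.54 kb in FL. Pou4f1 had 1.74, 2.27 and 3.36 kb in MC libraries, against 3.80, 4.80 and 3.28 kb in FL. Snap25 had 2.88, 3.97 and 4.05 kb in MC libraries, against 6.18, 3.89 and 5.40 kb in FL. In all 3 genes the FL mean was higher and the ranges overlapped, and Neurod1 was low in both, with 0.602, 0.978 and 0.865 kb in MC libraries, against 0.568, 1.15 and 1.29 kb in FL.

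**Figure D3:**
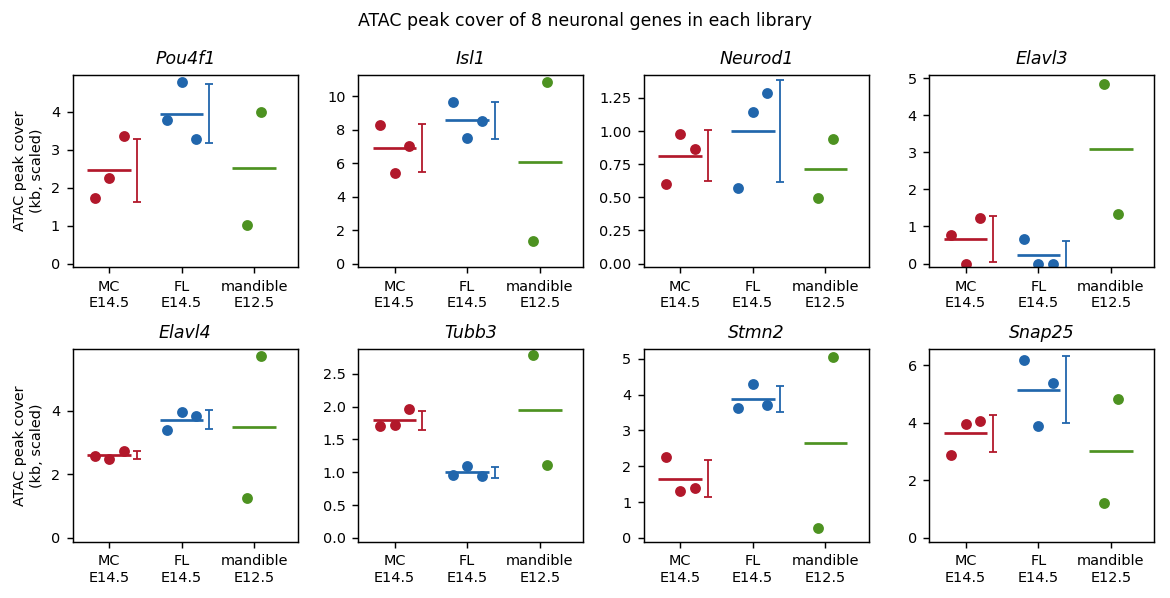
ATAC peak cover (kb, scaled to the same total per library; vertical axes differ) of each neuronal gene in the 3 MC, 3 FL and 2 E12.5 mandible libraries; points are libraries, lines are means, and bars beside the E14.5 groups are the SD. MC lies wholly below FL at Stmn2 and Elavl4 and wholly above it at Tubb3, and the E12.5 libraries lie far apart at most genes.

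All 8 genes were tested and none passed, against 0% of 16170 genes in either direction (limma, Benjamini-Hochberg adjusted p under 0.05; 847 genes had an unadjusted p under 0.05). This fit took 1 spread per gene from all 8 ATAC libraries. The standard errors of MC over FL therefore also hold the spread between the 2 E12.5 libraries, which lay far apart at most of these genes. Stmn2 averaged 1.65 ± 0.52 kb over MC libraries and 3.88 ± 0.37 kb in FL (SD, n = 3 each), a log2 difference of -1.05 on the log2(kb + 0.5) scale (SE 0.61, limma adjusted p = 1.0). That value rested on distant peaks: with a reach of 100 kb in place of 1 Mb it was -0.25, and the differences at Pou4f1 and Isl1 were -0.11 each. Tubb3 averaged 1.79 ± 0.15 kb over MC libraries and 0.998 ± 0.079 kb in FL, a log2 difference of 0.61 (SE 0.35, limma adjusted p = 1.0). Elavl4 averaged 2.60 ± 0.13 kb over MC libraries and 3.72 ± 0.29 kb in FL, a log2 difference of -0.44 (SE 0.45, limma adjusted p = 1.0). With only the MC and FL libraries in the fit, the limma adjusted p was 0.190 at Stmn2, 0.258 at Tubb3 and 0.385 at Elavl4. None of the 8 genes passed in that fit either, where 5 of 16170 genes were called higher and 3 lower.

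Of the 8 genes 2 had a positive and 6 a negative difference, with a median of -0.37, against 0.03 over all genes tested. The libraries of MC lay wholly above those of FL at 1 of the 8 genes, where 9.16% of all genes did, and wholly below at 2, where 8.99% did. Pou4f1 (-0.62, SE 0.45), Elavl3 (0.63, SE 0.59), Snap25 (-0.44, SE 0.45), Isl1 (-0.30, SE 0.58) and Neurod1 (-0.17, SE 0.35) all had differences under 2 times their standard errors from the fit that included the E12.5 libraries.

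The E12.5 mandible stood out at Elavl3, though its libraries disagreed with each other. Elavl3 had 4.85 and 1.34 kb in the E12.5 libraries, both above the highest MC library at 1.22 kb and the highest FL library at 0.656 kb. MC differed from E12.5 by -1.61 (SE 0.66, limma adjusted p = 0.713) and FL by -2.25 (SE 0.66, limma adjusted p = 0.397), so neither passed the threshold. Without E12.5 replicate 1 the differences were -0.80 and -1.40, and without replicate 2 they were -2.39 and -3.02. It was the only one of the 8 with an unadjusted p under 0.05 in these comparisons, against 917 of 16170 genes for MC over E12.5 and 1992 for FL over E12.5, and 0% of genes were called in either.

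E12.5 replicate 1 was high at Elavl3 and Tubb3 and lowest of all 8 libraries at the other 6 genes. At Tubb3 the E12.5 libraries had 2.79 and 1.12 kb, both above the FL range. At Isl1 they had 1.37 and 10.8 kb, at Stmn2 0.285 and 5.04 kb and at Elavl4 1.25 and 5.72 kb. The spread between these 2 libraries was thus wider than the difference between the MC and FL means at these genes.

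The remaining genes showed the same split. Snap25 had 1.21 and 4.85 kb in the E12.5 libraries, Pou4f1 1.02 and 4.00 kb and Neurod1 0.493 and 0.938 kb. E14.5 libraries lay wholly below E12.5 at Elavl3 in MC, 1 of 8 genes against a background of 3.93%, and at Elavl3 and Tubb3 in FL, 2 of 8 against 9.74%. FL lay wholly above E12.5 at 0 of 8, where 16.5% of genes did. The calls against E12.5 depended on which of its libraries was used. Without E12.5 replicate 2, which leaves the library that stood apart, 5 of the 8 genes passed with FL higher (Isl1, Stmn2, Snap25, Pou4f1 and Elavl4), where 26.9% of all genes did, and 2 with FL lower (Elavl3 and Tubb3), where 11.2% did. For MC over E12.5, 3 passed with MC higher (Isl1, Stmn2 and Snap25), where 18.9% did, and 0 with MC lower, where 4.4% did. Without E12.5 replicate 1, limma called 0 genes in either comparison (342 higher and 359 lower for FL, 593 higher and 698 lower for MC at an unadjusted p under 0.05), and Isl1, Stmn2, Elavl4 and Pou4f1 were lower in FL than in E12.5.

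The authors' combined ATAC lists, without replicate error, gave Tubb3 1.77 kb in MC, 0.698 kb in FL and 2.49 kb in E12.5. They gave Elavl3 1.03 kb in MC, 0 in FL and 3.94 kb in E12.5, and Stmn2 0.318 kb in MC, 2.72 kb in FL and 1.91 kb in E12.5. Scaled to equal totals, MC was at least 2-fold above FL at 2 of the 8 genes (Elavl3 and Tubb3), where 5.32% of genes were, and at least 2-fold below at 1 (Stmn2, at a log2 ratio of -1.98, or -0.20 with a reach of 100 kb), where 6.33% were. For MC over E12.5 the counts were 1 higher (Isl1) and 1 lower (Stmn2), where 11.7% and 14.7% of genes were, and for FL over E12.5 they were 2 higher (Isl1 and Snap25) and 1 lower (Elavl3), where 16.1% and 17.3% were.

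How much of a gene's cover could come from its size differed between the 8. Stmn2, Isl1 and Pou4f1 draw on 550, 880 and 320 kb of assigned genome, against a median of 44 kb over all genes, and Tubb3 on 21 kb. Set against an even spread of peaks, Tubb3 had 4.28 times the even cover in MC, 2.38 times in FL and 4.65 times in E12.5. Stmn2 had 0.15 times in MC, 0.35 times in FL and 0.24 times in E12.5, and Isl1 0.39, 0.49 and 0.35 times in MC, FL and E12.5. Elavl3 had 0.85 times in MC, 0.28 times in FL and 3.97 times in E12.5.

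**Figure D4:**
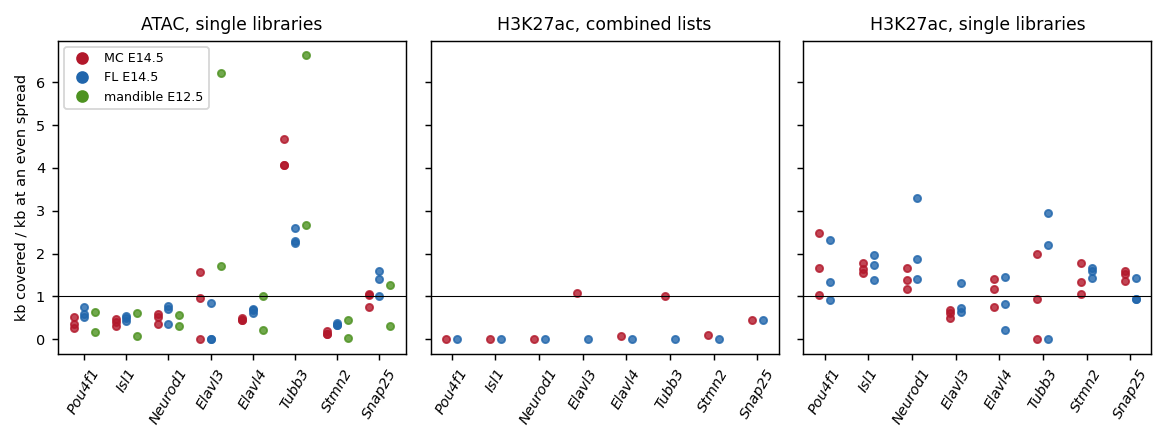
Cover of each neuronal gene divided by the cover that an even spread of peaks over its assigned stretch would give (vertical axis, ratio; 1 marks the even spread), for single ATAC libraries, combined H3K27ac lists and single H3K27ac libraries; points are lists. Tubb3 stands above 1 in every ATAC library, Stmn2 and Isl1 below 1 in every one, and in the single H3K27ac libraries most points lie between 0.5 and 2.5.

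Merged over the 8 single lists, the genes had 103 ATAC regions, of which 7 were called in all 8 libraries and 54 in 1 library alone. The regions shared by all 8 were 2 at Isl1, 2 at Snap25 and 1 each at Pou4f1, Neurod1 and Elavl4, and Elavl3, Tubb3 and Stmn2 had none. No region was called in all 3 MC libraries and 0 FL libraries, and 4 were called in all 3 FL libraries and 0 MC libraries. The 4 were 2 at Isl1, 1 at Pou4f1 and 1 at Stmn2, the nearest of them 83.7 kb outside its gene. How common such regions are over all genes was not counted, and the lists differ in length. The counts are therefore a description from which no tissue difference is read.

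The shared regions sat mostly at starts. At Isl1 chr13:116308309-116310558 covered the printed promoter, and chr13:116200900-116202063 lay 96.8 kb outside the gene. At Pou4f1 chr14:104467087-104468585 covered the start, and at Elavl4 chr4:110350220-110352429 did, with a peak score between the 88.5 and 97.2 percentiles of each library. That Elavl4 region also lay under the MC H3K27ac peak.

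At Snap25 one shared region, chr2:136713459-136714708, began at the end of lower coordinate, and the other, chr2:136678020-136680619, lay 34.1 kb outside within the H3K27ac peaks of both tissues. The shared Neurod1 region, chr2:79453854-79454710, lay inside the gene, 1.93 kb from its start. At Tubb3 chr8:123410764-123413287 covered the start in 7 libraries, and chr8:123421856-123423026, under the MC H3K27ac peak of the 3′ end, was called in 3 MC, 2 FL and 1 E12.5 libraries. The open chromatin under the MC H3K27ac peaks of Elavl4 and Tubb3 was therefore also present in FL libraries.

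At Stmn2 both MC H3K27ac peaks held ATAC regions of both tissues. Region chr3:8510767-8511699, 1.24 kb inside the span, was called in 2 MC, 2 FL and 1 E12.5 libraries, and chr3:8594415-8595088 in 3 MC, 1 FL and 1 E12.5 libraries. At Elavl3 the region nearest the start, chr9:22049326-22051558, was called in 1 MC, 1 FL and 2 E12.5 libraries. Of the other 8 Elavl3 regions 7 were called only in E12.5, all in replicate 1 alone.

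Nerve tissue was read further through the wider neuronal and Schwann cell lists. The summed ATAC cover of the wider neuronal list was 64.3 to 74.1 kb in the MC libraries, 58.6 to 71.9 kb in the FL libraries, and 144.7 and 89.5 kb in the E12.5 libraries. That of the Schwann cell list was 21.2 to 36.5 kb in MC, 20.6 to 23.9 kb in FL, and 37.7 and 27.4 kb in E12.5. For the 8 genes the sums were 18.2 to 22.7 kb in MC, 26.7 to 28.8 kb in FL, and 13.3 and 33.8 kb in E12.5. MC and FL ranges overlapped for both wider lists, and for the 8 genes every MC library lay below every FL library. That sum includes distant peaks. With a reach of 100 kb MC over FL shrank to -0.25 at Stmn2 and -0.11 at Pou4f1 and Isl1. At Elavl4 and Snap25 it did not shrink, at -0.48 and -0.49.

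Of the 24 wider neuronal genes, 1 to 5 were at 0 in the MC libraries, 0 to 4 in the FL libraries, and 1 and 0 in the E12.5 libraries. Of the 11 Schwann cell genes, 0 to 4 were at 0 in MC, 0 to 1 in FL, and 4 and 0 in E12.5. The part of nerve-associated cells in the values of the 8 genes was not tested.

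Of the wider neuronal list 23 genes were tested between MC and FL and 0 passed, 10 with a positive and 13 with a negative difference and a median of -0.19. Among those of smallest p were Dcx, a microtubule protein of migrating neurons (-1.95, SE 0.66), and Isl2, a relative of Isl1 (1.19, SE 0.45), each with a limma adjusted p of 0.949. Dcx had 0, 0 and 1.73 kb in the MC libraries, against 3.80, 1.65 and 2.98 kb in the FL libraries, and the ranges overlapped. Isl2 had 4.87, 2.43 and 2.97 kb in the MC libraries, against 1.15, 0.501 and 2.27 kb in the FL libraries, and every MC library was above every FL library. Dcx and Isl2 thus differed in direction.

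Of the Schwann cell list 10 genes were tested and 0 passed, 4 with a positive and 6 with a negative difference and a median of -0.15. The 3 of smallest p, given next, were all positive, unlike most of the list. Sox10, the transcription factor that defines Schwann cells and their neural crest precursors, had 0.451, 12.4 and 5.65 kb in the MC libraries, against 0.328, 0.785 and 0 kb in the FL libraries. MC was high in replicates 2 and 3 and overlapped FL in replicate 1, with a log2 difference of 2.38 (SE 1.00, limma adjusted p = 0.949). Erbb3, the neuregulin receptor of Schwann cells, had 2.26, 4.07 and 4.05 kb in MC libraries, against 1.71, 2.23 and 1.70 kb in FL, all MC libraries higher (log2 difference 0.70, SE 0.36, limma adjusted p = 0.991). S100b, a calcium-binding protein of Schwann cells that cartilage also makes, differed by 0.67 (SE 0.44, limma adjusted p = 1.0).

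Towards E12.5 no gene of these lists passed either, and those of smallest p went both ways. Of the 23 wider neuronal genes tested, 7 had a positive and 16 a negative difference for MC over E12.5, and 12 a positive and 11 a negative one for FL. FL lay wholly below E12.5 at 8 of the 23, where 9.74% of all genes did, and wholly above at 2, where 16.5% did. MC lay wholly below at 1, where 3.93% did, and wholly above at 1, against 2338 of all 16170 genes. Neurog1, which starts the sensory neuron programme, had 0, 0.983 and 1.62 kb over MC libraries and 0.704, 0.745 and 1.29 kb in FL, against 5.06 and 2.75 kb in E12.5, where both libraries were above all of the others. Its log2 difference was -1.87 for MC (SE 0.59, limma adjusted p = 0.713) and -1.61 for FL (SE 0.59, limma adjusted p = 0.397).

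Syn1, a protein of synaptic vesicles, went the other way, with 2.61, 3.32 and 4.84 kb in MC libraries, against 0.238 and 1.93 kb in E12.5, every MC library higher (1.58, SE 0.52, limma adjusted p = 0.713). Avil, a gene of sensory neurons, had 0, 0 and 1.91 kb in MC libraries, against 3.60 and 1.35 kb in E12.5, with overlap (-1.71, SE 0.93, limma adjusted p = 0.713). Rbfox3, an RNA-binding protein of mature neurons, had 2.13, 4.59 and 3.48 kb in FL, against 95.3 and 7.07 kb in E12.5. Its difference was -2.84 (SE 0.93, limma adjusted p = 0.397), and the 2 E12.5 libraries were far apart.

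The Schwann cell genes also split. S100b had 2.77, 0.892 and 1.95 kb over MC libraries and 0.922, 0.815 and 0.986 kb in FL, against 0 and 0.658 kb in E12.5, with every E14.5 library higher (1.55 for MC, SE 0.49, limma adjusted p = 0.713; 0.89 for FL, SE 0.49, limma adjusted p = 0.430). Gfra3, a receptor subunit for a neurotrophic factor, had 1.30, 0 and 0.376 kb over MC libraries and 0.788, 0.601 and 0.646 kb in FL, against 1.86 and 1.94 kb in E12.5, with every E14.5 library lower (-1.38 for MC, SE 0.51, limma adjusted p = 0.713). Sox10 had 12.2 and 1.00 kb in E12.5, above every FL library (-2.43, SE 1.12, limma adjusted p = 0.410), and Mbp, a myelin protein, overlapped between MC and E12.5 (-0.46, SE 0.45, limma adjusted p = 0.745).

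In the single H3K27ac libraries 13 wider neuronal genes were tested and 0 passed, 9 with a positive and 4 with a negative difference. Neurog1 had 0.595, 0 and 1.19 kb in MC libraries, against 2.35, 3.79 and 1.93 kb in FL, each MC library below each FL library (log2 difference -1.67, SE 0.52, limma adjusted p = 0.737). Mapt, the axonal protein tau, and Syn1 had positive differences with overlap, of 0.77 (SE 0.39, limma adjusted p = 0.784) and 0.80 (SE 0.50, limma adjusted p = 0.784). Of 5 Schwann cell genes 0 passed, 4 with a positive and 1 with a negative difference. Egr2, the factor that drives myelination, had 3.57, 2.76 and 3.34 kb in MC libraries, against 0, 1.41 and 2.96 kb in FL, with overlap (1.32, SE 0.67, limma adjusted p = 0.784). Mbp had 2.43, 2.17 and 2.78 kb in the MC libraries, against 1.71, 2.10 and 0.599 kb in the FL libraries, all MC libraries higher (0.67, SE 0.43, limma adjusted p = 0.784). Cdh19, a cadherin of Schwann cell precursors, had 27.2, 27.9 and 25.2 kb in the MC libraries, against 33.3, 42.2 and 34.0 kb in the FL libraries, all MC libraries lower (-0.43, SE 0.33, limma adjusted p = 0.824).

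The 8 genes did not share one ATAC profile. Centred on each gene's own mean over the 8 libraries, E12.5 replicate 1 lay 2.22 above the mean on the log2 scale at Elavl3 and 0.75 above it at Tubb3, and 1.91 below it at Isl1 (-1.91) and 1.82 below it at Stmn2 (-1.82). The genes whose centred values over the 8 libraries were nearest to the mean profile of the set, among 13255 genes with a mean of 1 kb or more, were Coch, Gdnf, Ankrd16, Napb and Ran. Their root-mean-square differences from it were 0.06 to 0.11 on the log2 scale, against a median of 0.50 over all compared genes. They were picked for the smallest differences, and the mean profile joins genes that differed, so nothing is read from this contrast.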

How the data were processed

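Hi-C and 4C samples were not analysed here, only peak lists. Reads went, per the submitters' processing notes, through Trim Galore, Bowtie2 and SAMtools to mm10, with peaks called by Genrich (ATAC-seq) and SEACR (CUT&Tag). The deposited ATAC lists hold the authors' peak score, never under 200, and a -log10 p-value; the deposited H3K27ac lists hold the authors' total signal, the one column used beside positions. Positions are those the authors deposited. Combined lists are pooled by the authors and carry no error or test. Depth is unknown.

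Gene spans came from RefSeq genes on GRCm38.p6. The kb of peaks per gene was scaled to equal totals, and log2(kb + 0.5) was fitted with limma 3.58.1 in R 4.3.3 over all genes with a mean of at least 0.3 kb (ATAC, 8 lists in 1 fit) or 1 kb (H3K27ac), with a Benjamini-Hochberg threshold of 0.05. The fits were tested on simulated data. Regions are merged ATAC peaks of the 8 single lists, shared at an overlap of 1 bp. Scores and signals rank peaks within a list, except where the 2 combined H3K27ac lists are set side by side.

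The 8 genes and all marker lists were chosen with earlier results of these data known. Named from the wider neuronal and Schwann cell lists were the genes past the threshold or else the 3 of smallest p, of which 1 is not reported here; the most similar genes were the 5 of smallest root-mean-square difference. Alternatives were other pseudocounts, filters, reach, scaling and overlap, peaks ranked by score, single replicates left out, and a replicate block; a rescaled signal minimum was added after seeing the data. Same-numbered MC and FL ATAC libraries correlated at 0.042 to 0.052 in their deviations, so the numbers were not taken to pair samples.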

Additional observations from a re-analysis of the deposited data

How the results depend on the processing

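With 0 genes called at first in each limma comparison, counts moved as follows (higher, then lower). At a pseudocount of 0.1 kb they were 11 and 9 for MC over FL, 8 and 3 for MC over E12.5, 3 and 3 for FL over E12.5, and 2 and 2 for single H3K27ac lists. With only the groups compared they were 5 and 3 for MC over FL. Leaving out single libraries gave 0 to 5 and 0 to 3 for MC over FL, 0 to 3044 and 0 to 710 for MC over E12.5, and 0 to 4339 and 0 to 1806 for FL over E12.5; the high ends of the last 4 ranges came without E12.5 replicate 2, where E12.5 is 1 library assumed to vary like the other groups. With the replicate number as a block, all counts were 0 and no value of MC over FL moved (-1.05 at Stmn2); the numbers did not pair the samples. The other settings called 0 genes.

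At a reach of 100 kb, MC over FL was -0.25 at Stmn2. For the 8 genes, signs turned mainly against E12.5. Over single libraries left out, MC over E12.5 spanned -0.63 to 0.92 at Pou4f1, -0.63 to 1.97 at Isl1, -0.13 to 0.40 at Neurod1, -0.99 to 0.82 at Elavl4, -2.39 to -0.80 at Elavl3, -0.52 to 0.49 at Tubb3, -1.37 to 1.43 at Stmn2 and -0.38 to 1.26 at Snap25. FL over E12.5 spanned -0.028 to 1.54 at Pou4f1, -0.33 to 2.27 at Isl1, -3.02 to -1.40 at Elavl3, -0.56 to 1.27 at Elavl4 and -0.34 to 2.48 at Stmn2. Single H3K27ac lists spanned -0.11 to 0.53 at Pou4f1, -0.16 to 0.087 at Isl1 and -0.0075 to 1.15 at Elavl4. Without scaling, MC over E12.5 was -0.24 at Pou4f1, -0.16 at Neurod1 and -0.23 at Stmn2, FL over E12.5 was -0.042 at Elavl4, and H3K27ac was 0.029 at Isl1. By number of peaks, MC over E12.5 was 0.19 at Elavl4 and 0.14 at Tubb3, and MC over FL was 0.022 at Neurod1. MC over E12.5 was 0.014 at Tubb3 with 0.1 kb and -0.14 at Stmn2 with 2 kb as pseudocount.

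In combined lists, the 4 genes higher in MC by H3K27ac became 1 without MC peaks under the FL minimum, and 3 with the same number of peaks from each list or with a minimum rescaled by the median ratio of shared pairs, a ratio the FL minimum itself raises. For ATAC, genes higher by 2-fold in MC than FL went to 0 with the upper 50% of peaks by score, and those lower went to 0 at a reach of 100 kb and 2 with the upper 50%. MC over E12.5 gave 0 higher at 100 kb and in the upper 50%, and 2 lower at 0.1 kb, 0 at 100 kb and 4 in the upper 50%. FL over E12.5 gave 1 higher at 100 kb and in the upper 50% and 0 inside spans, and 2 lower inside spans and at 0.1 kb and 3 in the upper 50%. Inside spans, Isl1 was -0.47 for MC and -2.07 for FL over E12.5. Regions in all 8 lists fell to 3 in the upper 50%. The cause of these changes was not tested. Depth is unknown, and the FL minimum of 25799 limits every statement that a gene had no FL H3K27ac.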
